A study of Mus musculus with 18 samples.

Results

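The mitochondrial ribosome proteins were taken as every protein-coding gene named Mrpl or Mrps followed by a digit, 48 Mrpl and 29 Mrps genes. All 77 genes stood in each of the 3 deposited tables, which list 23757 genes (naive), 24117 genes (effector) and 24927 genes (memory). By the current structural naming 50 of them encode proteins of the large subunit and 26 of the small subunit, and Mrps36 encodes KGD4, a subunit of the 2-oxoglutarate dehydrogenase complex rather than of the ribosome. Mrps18a and Mrps30 carry small-subunit names but their proteins sit in the large subunit. A further 5 processed pseudogenes with such names were left out, and can share reads with their parent genes. The 77 genes lie on 17 chromosomes, with at most 11 on any of them.

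Polyadenylated RNA was sequenced from CD8+ T cells of mice, either wild type (WT) or labelled as a conditional knockout (cKO) of Hspa9, the gene of the mitochondrial chaperone GRP75. Naive cells were taken from lymph nodes and spleen of mice aged 8 weeks, and the effector and memory cells were derived from such naive cells in culture, with no further treatment in the labels. Each of the 6 groups, naive, effector and memory cells of WT and of cKO, has 3 libraries. The Cre line that drives the deletion and whether replicates were separate mice are not given in the sources used here, so the p-values measure the spread between these samples, which may be technical.

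Mitochondrial ribosomes translate the few proteins encoded by mitochondrial DNA, all of them subunits of oxidative phosphorylation. Their ribosomal RNAs, mt-Rnr1 and mt-Rnr2, are transcribed inside the organelle, whereas every ribosome protein is encoded in the nucleus, made in the cytosol and imported; GRP75 is the motor chaperone of import into the matrix. Some of these proteins have relatives in the ribosomes of all domains of life, some only in bacteria, and others exist only in mitochondria. T cells are known to enlarge their mitochondria and to use more mitochondrial translation after activation.

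Promoters were examined because the members share a function but not a direction of change. RefSeq start sites of the build GRCm38.p6 gave 74 promoters for 68 of the 77 members, each 300 bases long with 250 before and 50 after the start. The 8 stretches printed here are the 100 bases before a start, 5′ to 3′. They were picked, with the values known, from the 23 member stretches that overlap no annotated exon. Mrps16, Mrpl20, Mrpl43 and Mrpl34 rose in WT effector cells against WT naive cells, Mrps2 and Mrps9 fell, and Mrpl58 and Mrpl41 were lower in naive libraries labelled cKO than in WT. Capitals mark CCGGAAG, the core bound by ETS factors, or CACGTG, the E-box, on either strand.
Mrps16: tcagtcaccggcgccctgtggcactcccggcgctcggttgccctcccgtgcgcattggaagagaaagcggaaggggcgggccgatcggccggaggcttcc
Mrpl20: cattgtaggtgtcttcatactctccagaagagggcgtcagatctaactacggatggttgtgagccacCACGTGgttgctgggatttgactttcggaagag
Mrpl43: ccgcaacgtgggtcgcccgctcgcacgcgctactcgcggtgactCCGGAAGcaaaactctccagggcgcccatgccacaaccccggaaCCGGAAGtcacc
Mrpl34: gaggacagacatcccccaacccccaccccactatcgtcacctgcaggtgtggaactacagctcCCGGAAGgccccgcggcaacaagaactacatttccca
Mrps2: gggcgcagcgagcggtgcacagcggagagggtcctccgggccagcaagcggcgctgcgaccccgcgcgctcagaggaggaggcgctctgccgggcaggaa
Mrps9: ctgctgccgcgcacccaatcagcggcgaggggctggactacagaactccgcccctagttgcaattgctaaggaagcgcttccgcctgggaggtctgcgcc
Mrpl58: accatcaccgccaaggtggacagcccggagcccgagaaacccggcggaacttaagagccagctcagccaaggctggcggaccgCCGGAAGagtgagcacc
Mrpl41: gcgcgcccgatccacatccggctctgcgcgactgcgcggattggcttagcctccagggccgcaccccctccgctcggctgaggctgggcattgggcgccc
On GRCm38.p6 the stretches lie at chr14:20393635-20393734 (minus strand) for Mrps16, chr4:155802778-155802877 (plus strand) for Mrpl20, chr19:45006443-45006542 (minus strand) for Mrpl43 and chr8:71464826-71464925 (plus strand) for Mrpl34. They lie at chr2:28467966-28468065 (plus strand) for Mrps2, chr1:42851133-42851232 (plus strand) for Mrps9, chr11:115403652-115403751 (plus strand) for Mrpl58 and chr2:24975099-24975198 (minus strand) for Mrpl41.

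The ETS core CCGGAAG was in 33.8% of the member promoters (25 of 74), against 8.86% of all 32851 promoters and 11.6% of the 21263 promoters of protein-coding genes. Among members with a promoter it was in 15 of the 30 that rose in WT effector cells, 2 of the 13 that fell and 8 of the 25 that were not called. The NRF1 core GCATGCGC was in 10.8% of member promoters (8 of 74) against 2.71% of all. The full NRF1 palindrome, which contains that core on both strands, was in 4.05% (3 of 74) against 0.971%. The YY1 consensus that starts with AAGATGG was in 6.76% (5 of 74) against 0.852%. The E-box CACGTG was in 9.46% against 7.15%, and TATAAA in 6.76% against 13.6%. For promoters of protein-coding genes the shares were 3.52% (NRF1 core), 1.33% (palindrome), 1.21% (YY1), 7.84% (E-box) and 12.6% (TATAAA). Median GC content was 58.5% for member promoters, 52.7% for all promoters and 56.3% for those of protein-coding genes. Both strands were searched. The matches describe letters in these windows and were not tested.

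Per-gene reads recovered from the deposited values summed to between 14771251 and 18049774 per library, and all 77 members passed the filter on low values in every comparison. Hspa9 itself was higher in libraries labelled cKO in each subset: naive libraries held 4095, 3789 and 4093 normalised reads in WT and 6448, 6718 and 6149 in cKO, effector means were 2093 and 2340, and memory means 4041 and 5637. This goes against a loss of the transcript, and the deleted exons are not given in the sources used here, so groups are called by their labels throughout. All 8 CD8 T cell markers were present in every group. In the naive table WT and cKO libraries also differed in sex-linked transcripts (Xist 870.0 to 1044 CPM in WT and 265 to 298 in cKO; Ddx3y 0 CPM in WT and 178 to 197 in cKO), so that label and sex of the mice cannot be told apart there. The labels name no batch. In bulk RNA, fewer cells of a type and less RNA per cell cannot be told apart. Reads of 38 members that overlap another gene (33 of them a gene on the opposite strand) cannot be split with certainty, since the strand setting of the counting is not given in the sources used here.

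The summed transcript level of the 77 members, Mrps36 included, differed little between the groups. The summed level of the 77 members, in CPM after TMM scaling (CPM are counts scaled to a common library total, and TMM, edgeR's trimmed mean of M-values, adjusts them for composition), was 2141, 2033 and 2051 in WT naive libraries. It was 2259, 2225 and 2270 in WT effector libraries, above every WT naive library. It was 1914, 2140 and 1914 in WT memory libraries, where replicate 2 reached the naive range. Means were 2075 ± 57.9 (SD, n = 3), 2251 ± 23.7 (SD, n = 3) and 1989 ± 131 (SD, n = 3). Libraries labelled cKO summed to 1969, 1969 and 1908 in naive, 2133, 2191 and 2129 in effector, and 2193, 1866 and 1762 in memory cells. After TMM scaling, the naive and the effector cKO sums lay below all WT sums of the same subset, and the memory sums overlapped. The TMM step alone shifted cKO minus WT by -0.11 on the log2 scale in naive cells and by 0.0059 in effector cells. Scaled to library totals, the median difference over the members was 0.01 in naive and -0.09 in effector cells. The naive order of the sums therefore depends on the scaling. The order of WT effector above WT naive libraries depends on the scaling as well. TMM factors were lower in every WT effector library than in every WT naive library, which raises the effector sums relative to the naive ones. With these factors taken out, the WT effector and WT naive sums overlapped. With 3 libraries against 3, an exact permutation test cannot give a p below 0.1 for these sums.

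**Figure D1:**
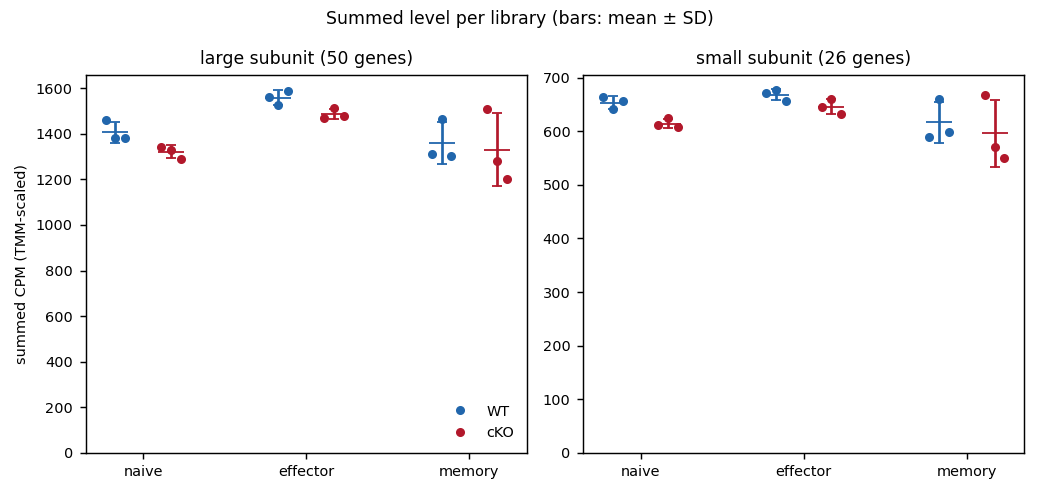
Summed TMM-scaled CPM of the 50 large-subunit genes (left) and the 26 small-subunit genes (right) in each library, by subset, with WT in blue and cKO in red. Points are libraries, and bars the mean ± SD of 3. Large-subunit WT means were 1406 (naive), 1559 (effector) and 1360 (memory), and small-subunit WT means 654, 668 and 616.

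Single members were expressed at very different levels. Per kilobase of gene length, WT naive means ran from 1.20 CPM per kb for Mrps25 to 58.8 CPM per kb for Mrpl24, a 48.9-fold range around a median of 10.1. Mrpl24 encodes a protein near the exit of the peptide tunnel; it overlaps Rrnad1 on the opposite strand. After Mrpl24 the highest in WT naive cells were Mrps23 at 31.5 ± 1.7 (SD, n = 3) and Mrps15 at 25.5 ± 0.52 (SD, n = 3) CPM per kb, and the lowest after Mrps25 were Mrpl17 at 2.03 and Mrpl47 at 3.03. In WT effector cells the order at the top was Mrps21 at 44.8 ± 1.6 (SD, n = 3), Mrps23 at 44.0 ± 1.0 (SD, n = 3) and Mrpl18 at 40.0 ± 2.7 (SD, n = 3) CPM per kb. The first pair lay within their SDs of each other. The lowest there were Mrps10 at 1.82, Mrps25 at 2.21 and Mrpl47 at 2.24. In WT memory cells Mrpl24 led again with 52.8 ± 1.3 (SD, n = 3), ahead of Mrps23 with 34.5 and Mrpl9 with 28.4 CPM per kb. Mrps25 with 1.36, Mrpl17 with 2.23 and Mrps10 with 2.63 CPM per kb were lowest. Gene lengths of the members ran from 607 to 8631 bases, and the longest genes were among those low per kilobase.

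Between WT naive and WT effector cells, the members' transcripts moved in both directions. Of the 77 members 34 rose, 15 fell and 28 were not called, by edgeR's quasi-likelihood test on recovered reads at a Benjamini-Hochberg adjusted p under 0.05. Among all 15840 genes tested 33.8% rose and 32.6% fell, 66.4% in either direction, so the members that rose are 44.2% of their number and those that fell 19.5%. The median log2 difference was 0.11 over the members and -0.0024 over all genes. The middle 50% of members spanned -0.17 to 0.50, and that of all genes -0.65 to 0.67.

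Markers of other cell types differed between the WT subsets as well. Macrophage and dendritic cell markers (1 of 7 at 1 CPM or more in naive, 5 of 7 in effector and in memory cells, none at 0) summed to 4.07 to 4.65 CPM in WT naive, 728 to 743 in WT effector and 56.9 to 63.5 in WT memory libraries. B cell markers (4 of 7 in naive, 7 of 7 in the others, none at 0) summed to 438 to 474, 210 to 214 and 742 to 811 CPM. NK cell markers were Ncr1, Klrb1c, Eomes and Nkg7. They (2 of 4, 4 of 4 and 3 of 4, with Ncr1 at 0 in naive) summed to 256 to 262, 1107 to 1117 and 398 to 471 CPM. This sum cannot tell NK cells from T cells that express some of these genes. Neutrophil markers (0 of 5, 3 of 5 and 4 of 5) summed to 0.251 to 0.597, 10.5 to 10.9 and 13.7 to 14.9 CPM, with Ly6g and Mpo at 0 in naive and Ly6g at 0 in memory cells. CD4 T cell markers (4 of 5, 4 of 5 and 5 of 5, none at 0) summed to 57.4 to 66.2, 142 to 148 and 248.9 to 264 CPM. Their part in the members' differences between WT subsets was not tested.

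Among the members that rose most, 3 encode proteins of the large subunit and 2 of the small subunit. Mrps16 (chr14:20439372-20443702 in GRCm39) encodes bS16m, a small-subunit protein shared with bacteria. It had 26.4, 23.8 and 23.8 CPM in WT naive libraries, 56.6, 49.9 and 49.95 in WT effector libraries and 27.0, 35.4 and 30.2 in WT memory libraries. The effector libraries stood above all others, and the log2 difference to naive was 1.08 (SE 0.10, edgeR adjusted p = 1.3e-09), a 2.11-fold rise. Mrps21, another bacterial-type small-subunit protein that overlaps C920021L13Rik, had 18.2, 16.4 and 17.2 CPM in naive, 33.9, 33.7 and 31.8 in effector and 14.8, 20.0 and 15.5 in memory libraries (0.94, SE 0.15, edgeR adjusted p = 7.5e-06). Mrpl57, Mrpl20 and Mrpl40 each rose by 0.91. Mrpl20, a bacterial-type protein of the large subunit, had 19.0, 17.4 and 20.53 CPM in naive and 33.8, 36.6 and 36.8 in effector libraries. For these 5 genes no WT effector library overlapped a WT naive library. They were picked as the largest called rises, so this adds no support, and the share over all genes was not counted.

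The members that fell most include the highest of all. Mrpl23 (chr7:142086423-142094484 in GRCm39) encodes uL23m, at the exit of the tunnel through which the new peptide leaves. It had 33.7, 27.4 and 31.3 CPM in WT naive, 14.1, 14.1 and 13.9 in WT effector and 28.3, 32.7 and 31.2 in WT memory libraries. The effector libraries agreed closely and lay well under both other subsets, with a log2 difference to naive of -1.13 (SE 0.12, edgeR adjusted p = 6.6e-09), 2.19-fold lower. Mrps18b, a mitochondrial paralog of the S18 family that overlaps Gm16279, fell by 1.13 (SE 0.14), from 16.4, 19.3 and 20.8 CPM to 7.78, 8.73 and 9.35. Mrps5, which encodes uS5m near the mRNA entry site, fell by 1.02 (SE 0.10), from 58.2, 57.6 and 60.8 CPM to 31.0, 28.1 and 27.8. Mrpl24 fell by 0.85 (SE 0.09), from 142, 123 and 133 CPM to 78.0, 67.5 and 74.4, which took it from first place per kilobase to below the first 3. Mrps10, of the head of the small subunit, fell by 0.80 (SE 0.09). These 10 calls held in each alternative fit and with each library left out.

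**Figure D2:**
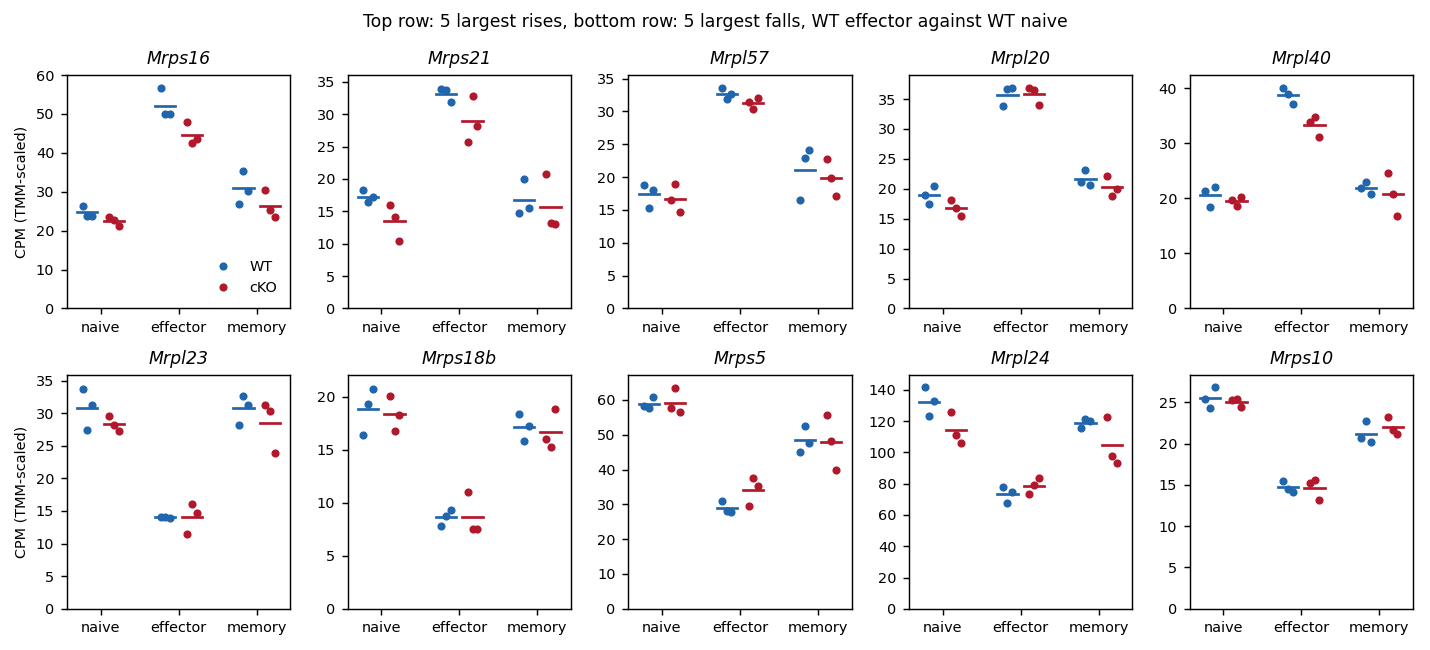
TMM-scaled CPM per library of the 5 members that rose most (top row) and the 5 that fell most (bottom row) in WT effector against WT naive cells, for each subset, with WT in blue and cKO in red. Points are libraries and bars means of 3. WT effector values of Mrps16 (49.9 to 56.6) stand above its naive values (23.8 to 26.4), and those of Mrpl23 (13.9 to 14.1) below (27.4 to 33.7).

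By evolutionary class, 14 of the 19 bacterial-type members rose in WT effector cells and 3 fell (Mrpl28, Mrps28 and Mrps6), with a median of 0.47. Of the 27 members with relatives in all domains of life 8 rose and 8 fell, with a median of -0.05. Of the 30 ribosome proteins found only in mitochondria 11 rose and 4 fell (Mrpl37, Mrpl38, Mrps18b and Mrps27), with a median of 0.07. By subunit, 25 of 50 large-subunit members rose and 7 fell, and 8 of 26 small-subunit members rose and 8 fell. Among all 15840 genes in this comparison 33.8% rose and 32.6% fell. Differences between these classes were not tested.

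WT memory cells, set against WT effector cells, showed the reverse balance, 13 members higher and 37 lower, against 31.2% and 29.3% of all 15840 genes (60.6% in either direction). This comparison and the one above use the same WT effector libraries. Mrpl23 was higher by 1.13 (SE 0.12), Mrps18b by 0.99 (SE 0.14), Mrps5 by 0.74 (SE 0.11), Mrpl24 by 0.70 (SE 0.09) and Mrps27 by 0.64 (SE 0.14). On the other side Mrps21 was at -0.98 (SE 0.15), Mrpl18 at -0.89 (SE 0.10), Mrps36 at -0.86 (SE 0.15), Mrpl27 at -0.84 (SE 0.16) and Mrpl40 at -0.83 (SE 0.11). Largest edgeR adjusted p among these 10 was that of Mrps27, 0.00044.

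WT memory and WT naive cells differed in fewer members, 3 higher and 12 lower, against 20.8% and 15% of all genes (35.8% in either direction). Mrpl49, a mitochondria-specific large-subunit protein, had 35.5, 33.2 and 30.6 CPM in naive and 18.5, 24.2 and 19.1 in memory libraries, and fell by 0.68 (SE 0.10, edgeR adjusted p = 4.7e-06). Mrpl28 was at -0.46 (SE 0.11), Mrps31 at -0.40 (SE 0.12), Mrpl51 at -0.40 (SE 0.15) and Mrpl50 at -0.38 (SE 0.10). The 3 higher members were Mrpl54 at 0.35 (SE 0.13), Mrps16 at 0.32 (SE 0.11) and Mrpl9 at 0.27 (SE 0.10). The number called higher was 0 without WT naive replicate 3 or WT memory replicate 2, 1 without WT naive replicate 2 and 5 without WT memory replicate 3. Over all genes those fits called 3014 of 15792, 3037 of 15793, 2932 of 15778 and 2967 of 15763 higher, in that order. The number of lower members was 6 without WT naive replicate 3. It was 5 without WT naive replicate 1, 4 without WT memory replicate 1 and 4 without WT memory replicate 3. Of all genes 2152 of 15792, 2023 of 15799, 1819 of 15808 and 1773 of 15763 were lower there, in the same order.

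**Figure D3:**
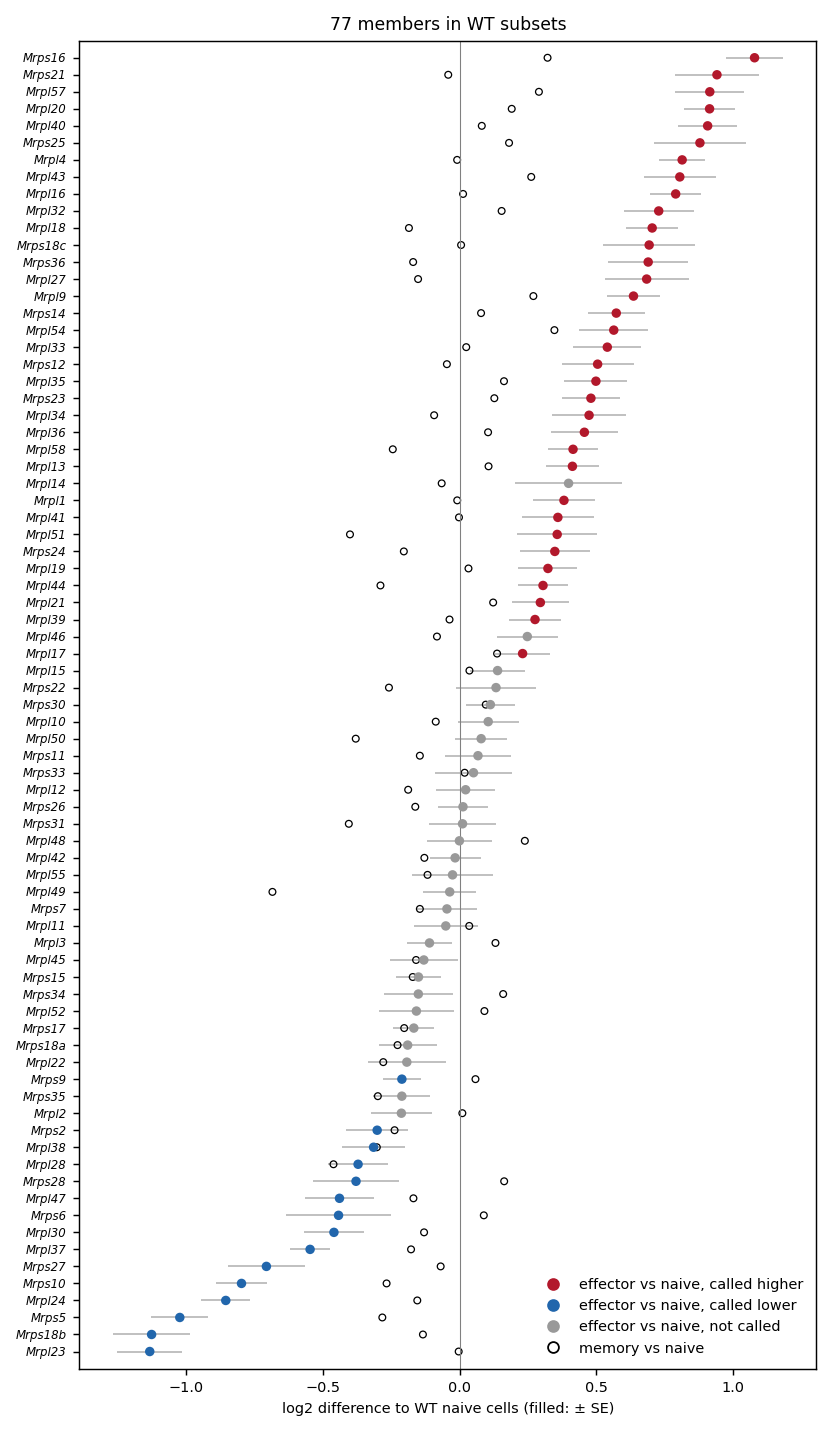
Log2 differences to WT naive cells of the 77 members, ranked by the effector value. Filled points are WT effector cells with SE bars (red called higher, blue called lower, grey not called), and open circles are WT memory cells. Effector values run from -1.13 (Mrpl23) to 1.08 (Mrps16), whereas memory values run from -0.68 (Mrpl49) to 0.35 (Mrpl54).

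Genes that act with the ribosome were counted in the same fits, where 33.8% of all genes rose and 32.6% fell in WT effector against WT naive cells. Differences between these lists and the members were not tested. Of 29 assembly factors, which fold and modify the ribosomal RNAs and join the subunits, 3 rose and 18 fell in WT effector against WT naive cells, with a median of -0.36. Fastkd2, an RNA-binding factor of large-subunit assembly, fell by 1.59 (SE 0.12), and Eral1, an RNA chaperone of the small-subunit rRNA, by 0.99 (SE 0.10). Against WT naive cells 1 of the 29 rose and 13 fell in WT memory cells, beside 20.8% and 15% of all genes. Of 18 translation factors 3 rose and 4 fell in WT effector cells. Among 5 ribosome proteins whose names carry no Mrpl or Mrps, Dap3 fell by 0.39 (SE 0.08), Ptcd3 by 0.68 (SE 0.07) and Gadd45gip1 by 0.47 (SE 0.16), Aurkaip1 rose by 0.46 (SE 0.10), and Chchd1 was not called. Both rRNAs, named for their role, rose: mt-Rnr1 by 0.78 (SE 0.14) and mt-Rnr2 by 0.77 (SE 0.11). In libraries made by poly-A selection their level depends on their tails as well as on their amount.

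Between the labelled genotypes the members differed by small amounts. Differences are cKO minus WT on log2(normalised reads + 1), where normalised reads are the deposited values scaled within each subset, tested with limma over all genes. In naive cells 0 members were called higher and 9 lower, against 12.9% and 11.9% of the 13885 genes tested (24.9% in either direction). At an unadjusted p under 0.05 0 were higher and 17 lower, and edgeR and DESeq2 also called 0 higher. In effector cells 0 were higher and 7 lower, against 10.7% and 9.37% of 13815 genes (20.1% in either direction), with 1 higher and 16 lower at an unadjusted p under 0.05 and 0 higher by edgeR and by DESeq2. In memory cells limma called 0 in either direction, against 12.1% higher and 7% lower among 14622 genes (19.1% in either direction). At an unadjusted p under 0.05 0 members were higher and 3 lower there, and edgeR and DESeq2 called 0. The shares of members lower, 11.7% in naive and 9.09% in effector cells, are close to the shares of all genes.

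The median difference over the members was -0.09 in naive and in effector cells and -0.04 in memory cells, and over all genes -0.01, -0.0054 and -0.02. Values below 0 were found for 59, 62 and 49 of the 77, and 28 members were below 0 in all 3 subsets and 0 above 0 in all 3. These counts depend on the scaling. Scaled to library totals, the median of all genes in naive cells moved from -0.01 to 0.09 and that of the members to 0.01, and 34, 63 and 31 members were below 0. Relative to the median of all genes, 56, 60 and 44 of the 77 were lower. The middle 50% of members spanned -0.21 to -0.003 in naive, -0.18 to -0.0077 in effector and -0.13 to 0.05 in memory cells. For all genes these spans were -0.21 to 0.22, -0.15 to 0.14 and -0.21 to 0.20. Libraries of cKO lay entirely below those of WT for 19 members (naive), 20 (effector) and 6 (memory), against 19.6%, 17.5% and 16.8% of all genes, and entirely above for 0, 2 and 1 members, against 20.3%, 17.9% and 19.4%.

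**Figure D4:**
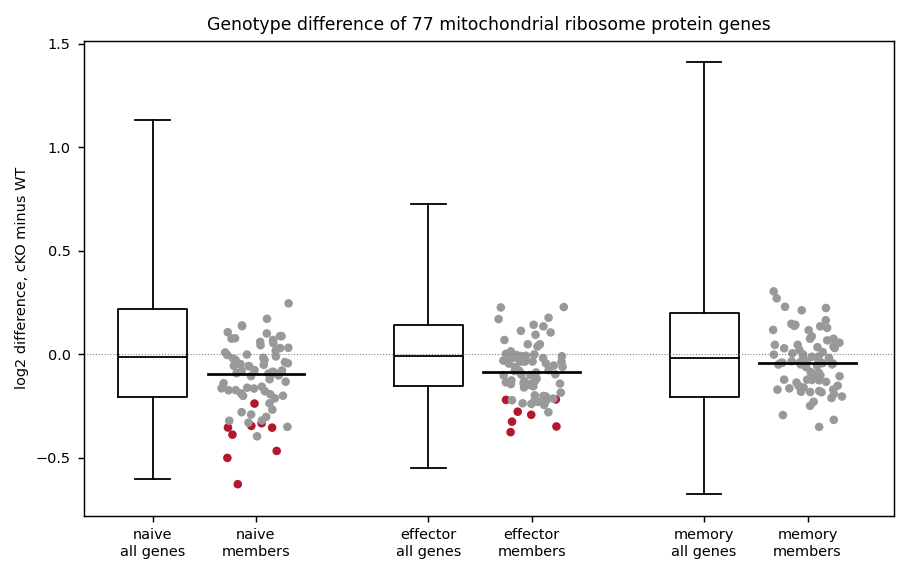
Log2 difference of cKO minus WT in each subset for all genes tested (boxes: median and quartiles, whiskers from the 5th to the 95th percentile) and for the 77 members (points, red where called, bar at the median). Members sit in a narrow band near 0, with medians of -0.09, -0.09 and -0.04.

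In naive cells 8 of the 9 lower members belong to the large subunit. Mrpl28 (chr17:26342474-26345587 in GRCm39) encodes bL28m, a protein shared with bacteria. It had 510, 508 and 430 normalised reads in WT and 320, 318 and 296 in cKO libraries. Every WT library exceeded every cKO library, the ratio of means was 0.645, and the log2 difference was -0.63 (SE 0.10, limma adjusted p = 0.000902). Mrps15 (chr4:125940718-125949325 in GRCm39) encodes uS15m, which binds the small-subunit rRNA and was the only small-subunit gene among the 9. It had 753, 729 and 730 normalised reads in WT and 528, 505 and 531 in cKO libraries, with little spread in either group, and fell by 0.50 (SE 0.07, limma adjusted p = 0.000604). Mrpl18, of the central protuberance of the large subunit, had 663, 528 and 572 normalised reads against 443, 450 and 380 (-0.47, SE 0.11, limma adjusted p = 0.00859). It overlaps Tcp1 on the opposite strand. These 3 calls held in each alternative fit and with each library left out.

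The other 6 had smaller differences. Mrpl12, whose protein forms the flexible stalk that recruits translation factors, had 556, 622 and 549 normalised reads in WT and 499, 412 and 450 in cKO libraries (-0.34, SE 0.10, limma adjusted p = 0.0235). Mrpl58, a peptidyl-tRNA hydrolase that rescues stalled ribosomes as well as being built into them, had 780, 671 and 700 against 577, 551 and 577 (-0.33, SE 0.08, limma adjusted p = 0.0134). The groups of both genes do not overlap, as in 19.6% of all genes in this direction, and both genes were called on these same libraries. Mrpl49 was at -0.35 (SE 0.09), Mrpl41 at -0.39 (SE 0.11), Mrpl51 at -0.35 (SE 0.12) and Mrpl24 at -0.24 (SE 0.08). Mrpl51 lost its call in 6 of 7 alternative fits and in 4 of 6 fits that left out a library (WT replicate 1 or 3, cKO replicate 2 or 3). Mrpl41 lost it with the replicate block and in 5 of 6 fits that left out a library, all but that without WT replicate 2. Mrpl12 lost it with the block and without WT replicate 2 or cKO replicate 2, Mrpl58 without WT replicate 1 or cKO replicate 2, and Mrpl49 without WT replicate 1 or cKO replicate 1. Mrpl24 was not followed through the alternatives. Mrpl24 was the exception in that its groups overlapped, with 2416, 2110 and 2277 normalised reads in WT and 2115, 1873 and 1790 in cKO libraries. The count of lower members was 4 without WT replicate 1, 4 without cKO replicate 2 and 5 with the replicate number as a block. All genes called lower also became fewer, from 1658 of 13885 to 1091 of 13694, 1043 of 13509 and 1098 of 13885. The authors' deposited table has 6 members lower in naive cKO at an adjusted p under 0.05.

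Several marker lists differed with the label in naive cells, with no overlap between WT and cKO libraries. Gamma-delta T cell markers (1 of 6 at 1 CPM or more in WT, 4 of 6 in cKO, none at 0) summed to 9.61 to 11.1 CPM in WT and 50.5 to 59.2 in cKO libraries. CD4 T cell markers (4 of 5 and 5 of 5, none at 0) summed to 57.4 to 66.2 and 104 to 122 CPM, and B cell markers (4 of 7 and 5 of 7, none at 0) to 438 to 474 and 352 to 396 CPM. Markers of the activated state (3 of 4 and 4 of 4, none at 0) summed to 26.9 to 33.1 and 128 to 142 CPM, and the CD8 markers to 5775 to 5997 and 5036 to 5151 CPM. Macrophage and dendritic cell markers (1 of 7 and 2 of 7, none at 0) summed to 4.07 to 4.65 and 7.30 to 8.75 CPM, and NK cell markers (2 of 4 and 3 of 4, with Ncr1 at 0 in WT) to 256 to 262 and 224 to 253 CPM. Their part in the members' differences was not tested.

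**Figure D5:**
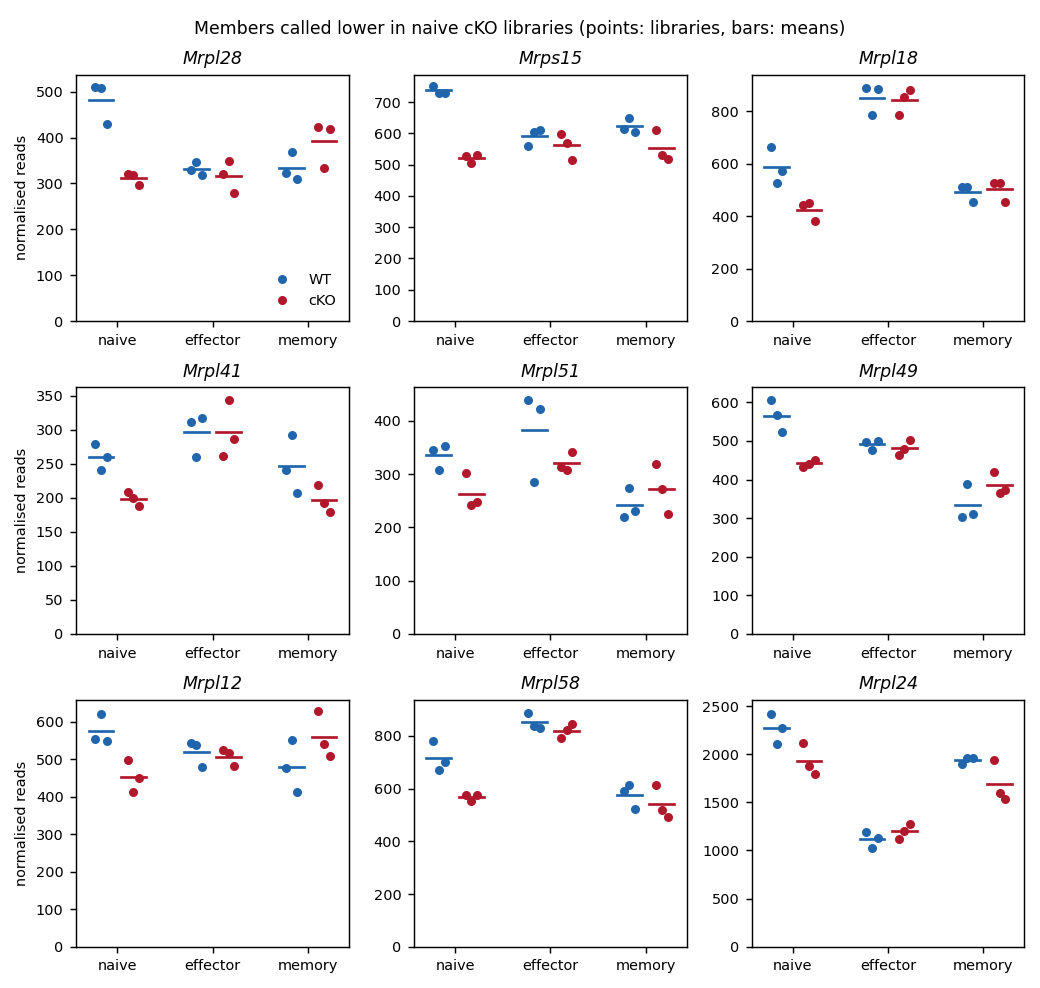
Normalised reads per library of the 9 members called lower in naive cKO cells, shown in all subsets (WT blue, cKO red; bars are means of 3). Levels of different subsets are not on a common scale. Naive values of Mrpl28 (430 to 510 in WT, 296 to 320 in cKO) separate, and its effector and memory values overlap.

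The 7 members called lower in effector cKO cells included none of the 9. Separate lists of calls do not show that the genotype difference varies between subsets. None of the 7 was called for a change of that difference between naive and effector cells. Mrps36 (chr13:100872463-100881167 in GRCm39), the dehydrogenase subunit, had 378, 356 and 374 normalised reads in WT and 283, 292 and 279 in cKO libraries, and fell by 0.38 (SE 0.08, limma adjusted p = 0.00349). Mrpl54, specific to mitochondria, had 331, 330 and 324 against 262, 269 and 255 (-0.32, SE 0.09, limma adjusted p = 0.0128). Mrpl11, which forms the base of the stalk, had 297, 275 and 269 against 212, 210 and 239 (-0.35, SE 0.10, limma adjusted p = 0.0191). In all 7 the WT and cKO libraries did not overlap, as in 17.5% of all genes in this direction. The 7 were called on these same libraries, so this adds no support. Mrpl35 was at -0.29 (SE 0.09), Mrps35 at -0.28 (SE 0.09), Mrps16 at -0.22 (SE 0.07) and Mrpl40 at -0.22 (SE 0.07). Mrps16 had 862, 760 and 761 normalised reads in WT and 732, 649 and 665 in cKO libraries.

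None of these 7 was called in a single fit of all 18 libraries, and 4 were called lower by DESeq2. Of all genes those fits called 590 of 15694 and 1095 of 13935 lower. Mrps36 and Mrpl54 kept their calls with each library left out, whereas Mrpl35, Mrps35 and Mrpl40 each lost theirs in 5 of 6 such fits (all but those without cKO replicate 3, WT replicate 1 and cKO replicate 2, in that order). Mrpl11 lost its call without cKO replicate 1 or 2 or without WT replicate 1. Mrps16 lost it without cKO replicate 2 or 3 or without WT replicate 1. Without cKO replicate 1, 3 members were lower and 3 higher, beside 1187 lower and 1331 higher among 13522 genes. Without cKO replicate 3, 4 members were lower, beside 1029 of 13516 genes. The authors' deposited table calls 1 member lower in effector cKO. Beside these values, macrophage and dendritic cell markers (5 of 7 in WT, 6 of 7 in cKO, none at 0) summed to 728 to 743 CPM in WT and 854 to 874 in cKO effector libraries. Erythroid markers (4 of 6 and 6 of 6) summed to 12.3 to 14.3 and 87.9 to 93.1 CPM, and gamma-delta T cell markers (3 of 6 and 5 of 6, none at 0) to 9.01 to 9.67 and 64.0 to 66.7 CPM. Neutrophil markers (3 of 5 and 4 of 5, none at 0) summed to 10.5 to 10.9 and 30.2 to 36.8 CPM, and B cell markers (7 of 7 in both) to 210 to 214 and 318 to 337 CPM. Lower in cKO were the sums of CD8 markers (6402 to 6519 CPM in WT and 5691 to 5904 in cKO), CD4 markers (142 to 148 and 120 to 129), NK cell markers (1107 to 1117 and 1045 to 1087) and activated-state markers (3192 to 3365 and 2856 to 3123). The naive-state sum was higher in cKO, at 411 to 415 CPM against 312 to 323. Their part was not tested.

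In memory cells, where no member was called, 2 genes are given that were chosen after their values were seen. The largest difference below 0 was that of Mrpl11, with 285, 352 and 315 normalised reads in WT and 275, 228 and 244 in cKO libraries (-0.35, SE 0.12, limma adjusted p = 0.0634). Mrps9 showed the same order without overlap, with 1093, 1023 and 1072 against 952, 956 and 885 (-0.19, SE 0.07, limma adjusted p = 0.100). Mrpl28 and Mrpl12 had higher means in cKO here: Mrpl28 had 323, 368 and 309 against 423, 333 and 420, and Mrpl12 had 477, 552 and 412 against 628, 541 and 510, both with overlap. Memory cKO replicate 1 had the highest summed level of the memory libraries, and without it 4 members were called lower, beside 1367 of 14219 genes. Without WT replicate 1, 1 member was, beside 528 of 14324 genes. The authors' deposited table calls 0 members in memory cells. B cell markers (7 of 7 in both) summed to 742 to 811 CPM in WT and 1345 to 1617 in cKO memory libraries, macrophage and dendritic cell markers (5 of 7 and 7 of 7) to 56.9 to 63.5 and 269 to 314, and neutrophil markers (4 of 5 in both, with Ly6g at 0 in WT) to 13.7 to 14.9 and 107 to 154. Gamma-delta T cell markers (4 of 6 in both) summed to 16.0 to 16.8 and 118 to 153 CPM, erythroid markers (5 of 6 and 6 of 6) to 18.8 to 28.4 and 48.7 to 65.9, NK cell markers (3 of 4 and 4 of 4) to 398 to 471 and 481 to 603, and activated-state markers to 245 to 252 and 406 to 453. Lower in cKO were the sums of CD8 markers (5061 to 5562 CPM in WT and 4188 to 4873 in cKO), CD4 markers (248.9 to 264 and 139 to 156) and naive-state markers (4829 to 5050 and 3449 to 3688). Their part was not tested.

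Whether a genotype difference itself varied between subsets was tested as an interaction in limma. Naive WT and cKO libraries differ in sex-linked transcripts, and Ddx3y was not listed for effector or memory cells. In interactions against naive cells, label and sex of the mice therefore cannot be told apart. Against naive cells the effector difference was higher for 5 members and lower for 1, against 8.81% and 9.69% of 15694 genes (18.5% in either direction). The memory difference was higher than the naive one for 5 and lower for 0 members, against 7.89% and 9% (16.9% in either direction). At an unadjusted p under 0.05 1 was lower there, and edgeR called 0 lower. Mrpl28, Mrpl18 and Mrps15 passed in both, and the comparisons share the naive libraries. The cKO minus WT difference of Mrpl28 was -0.63 (naive), -0.08 (effector) and 0.23 (memory), so the change from naive was 0.55 (SE 0.15, limma adjusted p = 0.0155) and 0.86 (SE 0.15, limma adjusted p = 0.000468). For Mrps15 the differences were -0.50, -0.08 and -0.17. The effector count of 5 was 2 without naive WT replicate 1, effector WT replicate 2, or effector cKO replicate 2 or 3, and 3 without naive cKO replicate 2 or 3 or effector WT replicate 3. Those fits called 1071 to 1389 of 15606 to 15651 genes higher, beside 1382 of 15694 with all libraries. In that comparison Mrpl28 missed the threshold without effector cKO replicate 2, and Mrpl18 in 4 of 12 fits that left out a library (naive WT replicate 1, naive cKO replicate 3, effector WT replicate 2 or effector cKO replicate 3), whereas Mrps15 kept its call in all 12. From naive to memory cells Mrps15 missed it by edgeR, with no filter and with the replicate block (highest adjusted p = 0.0673), and in 8 of 12 fits that left out a library (all but naive cKO replicate 3, memory WT replicate 2 and memory cKO replicates 2 and 3), whereas Mrpl28 and Mrpl18 kept their calls in all of these. Between memory and effector cells limma called 0 members, against 4.75% higher and 3.96% lower among all genes (8.71% in either direction). At an unadjusted p under 0.05 0 were higher and 3 lower, and edgeR called 0. Across the 77 members the naive and effector differences had a Pearson r of -0.19, naive and memory -0.03, and effector and memory 0.19. These describe genes within shared libraries and were not tested.

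Some members are known for particular roles and were followed whatever their values. Mrps12, at the decoding centre, had 200, 203 and 192 normalised reads in naive WT and 138, 180 and 152 in naive cKO libraries, a difference of -0.35 (SE 0.13, limma adjusted p = 0.0768). Its effector and memory differences were -0.24 (SE 0.11) and 0.00 (SE 0.15). Mrps18a was at -0.09, -0.16 and 0.04 in naive, effector and memory cells, and Mrps30 at -0.08, -0.20 and -0.18. Mrpl58 was at -0.05 in effector and -0.09 in memory cells. Across WT subsets Mrps12 rose by 0.50 (SE 0.13) and Mrpl58 by 0.41 (SE 0.09) from naive to effector cells, and Mrpl12 was at 0.02 (SE 0.11).

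Among the rRNA partners, mt-Rnr1 had 3350, 4057 and 4904 normalised reads in naive WT and 6217, 6334 and 5238 in naive cKO libraries, and rose by 0.54 (SE 0.12, limma adjusted p = 0.00701). The other rRNA, mt-Rnr2, rose by 0.52 (SE 0.12). In effector cells neither was called, and in memory cells mt-Rnr1 rose by 0.53 (SE 0.13) while mt-Rnr2 was at -0.13 (SE 0.09). Of the 29 assembly factors 4 were lower in naive cKO cells (Mtg2, Eral1, Mettl17 and Mrm2), 3 were lower in effector cKO cells (Ddx28, Mpv17l2 and Ndufab1) and 0 were called in memory cells, where 1 was higher and 5 lower at an unadjusted p under 0.05. The shares of all genes lower, 11.9% in naive and 9.37% in effector cells, are close to these counts of 4 and 3 among 29. Mettl17, a factor of small-subunit assembly, had 1106, 1068 and 1061 normalised reads in naive WT and 851, 863 and 859 in naive cKO libraries (-0.33, SE 0.07, limma adjusted p = 0.00411). Among the translation factors Tufm, the elongation factor that brings tRNA to the ribosome, fell by 0.48 (SE 0.08) in naive cKO cells, from 1083, 1153 and 1026 normalised reads to 727, 811 and 792. Mrrf, the recycling factor, rose by 0.56 (SE 0.10), from 199, 229 and 211 to 324, 304 and 314, and Lrpprc, which stabilises mitochondrial mRNA, rose by 0.31 (SE 0.07). Gfm2, the recycling GTPase, fell by 0.32 (SE 0.07) in effector cKO cells. Aurkaip1 was lower in naive cKO cells, at -0.30 (SE 0.08), the only call among the 5 ribosome proteins named otherwise.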

How the data were processed

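Poly-A RNA of 18 libraries was sequenced. Per the submitters' processing notes, the tools were HISAT2 2.2.1, fastp, DESeq2 1.42.0 and featureCounts 2.0.6, on the build GRCm39; settings are not given in the sources used here. The authors deposited 1 table per subset holding the signal of each gene in each library (reads divided by a size factor) and, for the genotype comparison, their log2 fold change, p-value and adjusted p-value. Dividing each deposited signal by the worth of 1 read gave whole counts for 100% of values (largest deviation 4.5e-06 reads, tolerance 1e-05), 14771251 to 18049774 reads per library. Since each table was scaled separately, subsets were compared on recovered reads.

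Genotype differences and interactions were fitted in R 4.3.3 with limma 3.58.1, taking log2 of normalised reads plus a pseudocount of 1 and keeping genes that reached 10 normalised reads in 3 or more libraries, and WT subsets with edgeR 4.0.16 (quasi-likelihood, TMM). P-values were adjusted by Benjamini-Hochberg over all genes tested and called under 0.05. The scripts were tested on simulated data. Common coefficients of variation between replicates were 8.91% (naive), 5.50% (effector) and 9.95% (memory). Named members were the up to 8 (genotype) or 5 (interaction, WT subsets) largest called differences per direction, the 3 highest and 3 lowest levels per kilobase, and members of known role. The members and lists were chosen with earlier results of these data known. Alternatives were edgeR, DESeq2, a pseudocount of 8, no filter, other scaling, other samples in the fit, a replicate block and leaving out each library. Where a library was left out, the fit pooled the spread of the rest.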

Additional observations from a re-analysis of the deposited data

Results flagged for a closer look

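The genotype difference (cKO minus WT) differed between subsets for these members, by limma's interaction test at an adjusted p under 0.05. All of them are differences to naive cells, where label and sex of the mice cannot be told apart. From naive to effector cells it changed by 0.5484 for Mrpl28, 0.4935 for Mrpl48, 0.4481 for Mrpl18, 0.4235 for Mrps15, 0.3432 for Mrpl24 and -0.29 for Mrps17. Of these, Mrps17 lost its call in 9 of 12 fits that left out a library, and with no filter and with the replicate block. Mrpl24 lost it in 8 of 12 such fits, by edgeR and with no filter. Mrpl48 lost it in 7 of 12 such fits and in 0 of 4 other settings. From naive to memory cells it changed by 0.8568 for Mrpl28, 0.5691 for Mrpl12, 0.5663 for Mrpl49, 0.4971 for Mrpl18 and 0.3293 for Mrps15. Mrpl48 had 460, 421 and 419 normalised reads in naive WT and 385, 353 and 342 in naive cKO libraries, and in effector cells 400, 383 and 373 against 361, 481 and 528, where the cKO libraries lay on both sides of WT. Mrps17 had higher means in naive cKO (864 against 786) and lower ones in effector cKO (560 against 622).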

How the results depend on the processing

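The called members with the largest differences per comparison and direction (up to 8 for the genotype, up to 5 for the others) were followed through the alternatives, and each kept its direction in every setting run. In WT effector against WT naive and WT memory against WT effector cells the 5 higher and 5 lower members followed kept their calls. Other called members with values in the text, such as Mrpl24 in naive cKO and Mrps12 and Mrpl58 in WT effector cells, were not followed. With the replicate number as a block, 5 members were lower in naive cKO, and 0 had a lower effector than naive difference. Over all genes these were 1098 of 13885 and 1463 of 15694. Libraries with the same number did not deviate together (correlations of deviations from the group means between -0.14 and 0.07). With 3 libraries per group, such correlations cannot show whether equal numbers mark paired samples, and the labels do not say. In effector cKO DESeq2 called 4 lower and the fit of all 18 libraries 0, and that fit called 2 lower in memory cKO. Of all genes 1095 of 13935, 590 of 15694 and 1473 of 15694 were lower there, in that order. With no filter 0 had a lower effector than naive difference and 1 was higher in WT memory than WT naive cells. Over all genes these were 1449 and 3107 of 20825. Leaving out each library in turn gave 4 to 11 lower and 0 to 1 higher in naive, 3 to 7 and 0 to 3 in effector, and 0 to 4 and 0 to 0 in memory cKO. Over all genes those fits called 1034 to 1607 lower and 1084 to 1735 higher in naive cKO, among 13489 to 13694 tested. They called 884 to 1187 and 1100 to 1411 in effector cKO (13516 to 13596 tested), and 487 to 1367 and 1151 to 1682 in memory cKO (14136 to 14405 tested). It gave 2 to 6 higher and 0 to 2 lower for the effector minus naive difference, 4 to 6 and 0 to 1 for memory minus naive, and 0 to 0 and 0 to 2 for memory minus effector. Among 15570 to 15651 genes tested, 1071 to 1389 were higher and 1289 to 1436 lower for effector minus naive. For memory minus naive 896 to 1391 and 1038 to 1643 were, and for memory minus effector 552 to 746 and 439 to 796. For WT it gave 30 to 33 higher and 12 to 14 lower in effector against naive, 9 to 15 and 32 to 39 in memory against effector, and 0 to 5 and 4 to 12 in memory against naive cells. Among 15763 to 15808 genes tested, 5083 to 5177 were higher and 4751 to 4863 lower in effector against naive cells. In memory against effector cells 4476 to 4586 and 4319 to 4627 were, and in memory against naive cells 2932 to 3060 and 1773 to 2152. Mrpl51 lost its naive call in 6 of 7 settings (highest adjusted p = 0.0868, with all 18 libraries in the limma fit). The cause of these changes was not tested. At 14771251 or more reads per library the members' counts were enough for the filter, and all 77 members passed it in every comparison.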
